A study of Mus musculus with 20 samples.

Results

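Cobl, Manba, Nfkb1, Sec14l1, Cpe and Kif1a are 6 genes, of 21375 in the count tables of the cell lines, whose difference between Zmym2-/- and control cells depended on the stage at which it was measured. They were picked by symbol from earlier results of the same libraries, as genes outside the lists of pluripotency factors, so their differences between genotypes and between stages are described here without a test. ZMYM2 is a zinc finger corepressor. RNA-seq was made from clonal Zmym2-/- lines (KO) and clonal non-target control lines (NT), 2 of each, as mouse embryonic stem cells (mESCs) in serum and LIF and again as embryoid bodies (EBs) at day 3 of differentiation, with 1 library per line and stage. All 4 lines came from V6.5, an mESC line of the strain C57BL/6x129/SvJae, and had been nucleofected with Cas9 and a guide RNA, aimed at the first coding exon of Zmym2 in the KO lines and non-targeting in the NT lines, so each genotype was represented by 2 clones. Whole E8.5 embryos of a C57BL/6 background, 6 Zmym2-/- and 6 wild type (WT) with 3 males and 3 females each, from crosses of Zmym2+/- parents and without visible abnormality, gave the context outside the lines.

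The 6 genes have unrelated roles. Cobl (cordon-bleu) encodes an actin nucleator that binds actin monomers through WH2 domains. Manba encodes lysosomal beta-mannosidase, which removes mannose from the ends of N-glycan fragments. Nfkb1 encodes p105, the precursor of the p50 subunit of the transcription factor NF-kB. Sec14l1 encodes a member of the SEC14 family, whose CRAL-TRIO domain binds lipids. Cpe encodes carboxypeptidase E, which trims basic residues from prohormone intermediates in the regulated secretory pathway, and Kif1a encodes a kinesin-3 motor that carries synaptic vesicle precursors along axons. In mESCs, naive pluripotency gives way to a formative and then a primed state as cells leave LIF and aggregate into EBs, and many genes with no role in pluripotency change level over the same days.

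The targeted gene was lower in every KO library of the lines. Zmym2 had 29.4 and 27.6 CPM (counts scaled to library size with TMM factors) in KO mESCs, against 68.1 and 72.0 CPM in NT mESCs, and 31.9 and 30.3 CPM in KO EBs, against 91.2 and 91.7 CPM in NT EBs. In embryos its range was 25.4 to 67.1 CPM in Zmym2-/- and 50.3 to 125 CPM in WT, so the ranges overlapped (log2 fold change -0.91, SE 0.25, adjusted p = 0.226). Counts assigned to genes summed to between 32016880 and 64057608 per library, so 1 CPM stood for at least 32 counts. Summed over 10 naive markers, levels were 1700 to 1860 CPM in KO mESCs, against 2500 to 2550 CPM in NT mESCs. Klf4, Tbx3, Esrrb, Tfcp2l1, Prdm14 and Nanog were called lower in KO mESCs and Klf2 higher (0.72), with the rest not called. Summed over 8 formative or primed markers, levels were 1120 to 1500 CPM in KO mESCs, against 413 to 580 CPM in NT mESCs. All of these but Sox4 were called higher, and Dnmt3b alone had means of 677 CPM in KO and 209 CPM in NT mESCs. In EBs the naive sum was 202 to 217 CPM in KO and 169 to 197 CPM in NT. Klf2 (1.57) and Zfp42 (0.67) were called higher and Nr0b1 (-1.15) lower in KO EBs. The formative sum was 3530 to 3790 CPM in KO EBs and 3890 to 4090 CPM in NT EBs. Dnmt3b made up most of it, with means of 2360 CPM in KO and 2600 CPM in NT. Otx2 (-0.29) and Dnmt3a (-0.28) were called lower in KO EBs, and no formative or primed marker was called higher. Of 7 fibroblast or feeder markers, 4 were in the tables of both stages, and their sum was 10.5 to 15.4 CPM in KO mESCs and 5.86 to 6.95 CPM in NT mESCs. Of these 4, Thy1 was called higher in KO mESCs (1.79, adjusted p = 0.000167), Pdgfrb was called lower (-1.20, adjusted p = 0.0423), and Col1a1 and Col1a2 were not called. Trophoblast markers, 6 of 7 measured, summed to 48.3 to 62.4 CPM in KO mESCs, against 36.6 to 44.3 CPM in NT mESCs, with Ascl2 called higher. Endoderm markers, 7 of 9 measured, summed to 7.24 to 11.9 CPM in KO mESCs, against 11.7 to 26.2 CPM in NT mESCs, with Gata6 (-2.82) and Cubn (-2.22) called lower. Among neural progenitor markers Pax6 (2.45) and Nes (1.15) were called higher and Olig2 (-2.36) lower in KO mESCs. In KO EBs Olig2 (-0.43) was again called lower. The trophoblast markers Ascl2 (1.21) and Gata3 (1.95) were called higher there. Of the endoderm markers, Gata4 (1.54) was called higher and Cubn (-2.37) and Ttr (-3.3) lower in KO EBs. The part of these marker differences in those of the 6 genes was not tested.

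The genes lie on 4 chromosomes (GENCODE M21 on GRCm38, the build of the deposited alignments): Cobl at chr11:12236608-12464960 on the minus strand, Sec14l1 at chr11:117115168-117159268 on the plus strand, Cpe at chr8:64592542-64693054 on the minus strand and Kif1a at chr1:93015464-93101951 on the minus strand. Manba, at chr3:135485611-135571404 on the plus strand, and Nfkb1, at chr3:135584655-135691547 on the minus strand, are direct neighbours with their 3′ ends facing each other across 13250 bases. Start windows of RefSeq on GRCm38.p6 matched 4 of the 6 genes. The stretch before the first RefSeq start of each is printed below, up to 250 bases and outside the annotated gene, to set a pair of genes that were lower in KO mESCs (Cobl and Sec14l1) beside the pair that was higher (Manba and Kif1a). Capitals mark TCCCGC, the core letters of an E2F site, and AGGTCA, the half-site of nuclear receptors such as ESRRB, on either strand (GCGGGA and TGACCT are their reverse complements).
Cobl, chr11:12464961-12465210, minus strand: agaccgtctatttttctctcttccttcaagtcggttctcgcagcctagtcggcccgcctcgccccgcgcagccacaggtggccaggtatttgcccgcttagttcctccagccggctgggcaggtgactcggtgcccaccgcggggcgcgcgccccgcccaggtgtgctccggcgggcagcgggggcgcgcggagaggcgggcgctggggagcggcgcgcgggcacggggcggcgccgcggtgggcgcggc
Sec14l1, chr11:117114918-117115167, plus strand: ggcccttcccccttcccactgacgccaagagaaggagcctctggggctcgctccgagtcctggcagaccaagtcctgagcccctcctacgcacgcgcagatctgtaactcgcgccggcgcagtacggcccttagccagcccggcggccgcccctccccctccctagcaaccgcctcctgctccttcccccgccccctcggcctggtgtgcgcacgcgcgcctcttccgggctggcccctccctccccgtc
Manba, chr3:135485361-135485610, plus strand: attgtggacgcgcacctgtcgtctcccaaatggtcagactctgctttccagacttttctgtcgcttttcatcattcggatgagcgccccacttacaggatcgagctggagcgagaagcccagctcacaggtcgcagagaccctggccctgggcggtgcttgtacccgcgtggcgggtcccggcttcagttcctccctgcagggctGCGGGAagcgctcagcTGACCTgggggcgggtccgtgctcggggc
Kif1a, chr1:93101952-93102124, minus strand: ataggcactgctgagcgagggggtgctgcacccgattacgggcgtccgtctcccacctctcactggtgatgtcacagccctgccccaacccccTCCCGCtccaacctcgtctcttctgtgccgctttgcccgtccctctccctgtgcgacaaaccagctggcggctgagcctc

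All 4 first-start windows were rich in CG pairs. Over their full 250 bases Cobl held 36, Sec14l1 23, Kif1a 22 and Manba 19, against a median of 6 over 32851 windows of the same length, and fewer pairs were found in 97.4% of windows than in Cobl, in 86.7% than in Sec14l1, in 85.2% than in Kif1a and in 80.3% than in Manba. TCCCGC began 45 bases before the Manba start and 157 bases before the Kif1a start, and 16.9% of all windows held it on either strand. AGGTCA began 29 bases before the Manba start, and 14.0% of all windows held it. A longer ESRRB site that contains this half-site was held by 0.387% of all windows, and an NF-kB site by 0.14%. Neither had a match in any window of the 4 genes, so the Manba match is one of the half-site only. The E-box CACGTG was in none of these 4 windows, stood 116 bases before the second RefSeq start of Kif1a, and was held by 6.02% of all windows. These are matches of letters and were not tested as binding sites.

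**Figure D1:**
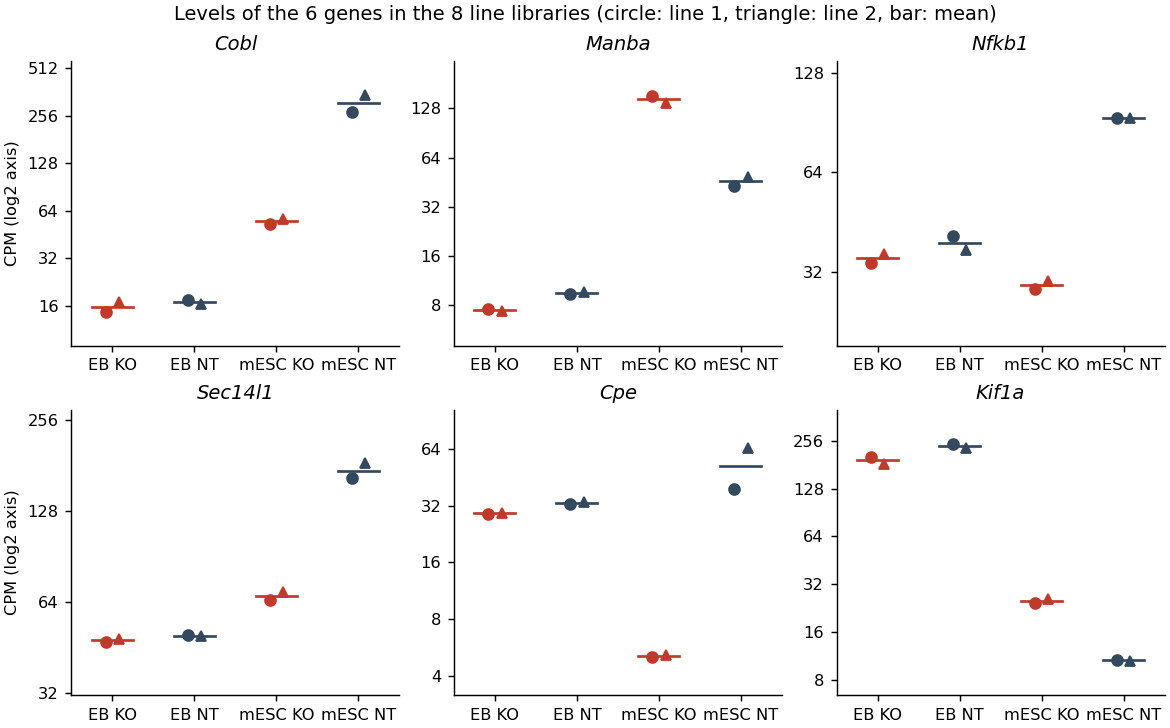
Level of each gene in the 8 line libraries in CPM on a log2 axis, with KO in red, NT in blue, circles for line 1, triangles for line 2 and bars for the group mean. KO and NT points lie close together in EBs and apart in mESCs for all 6 genes, with KO below NT for Cobl, Nfkb1, Sec14l1 and Cpe and above it for Manba and Kif1a.

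In mESCs, 4 genes were lower and 2 were higher in the KO lines. Over all 20159 genes tested there, 19.2% were called at an adjusted p under 0.05 (edgeR quasi-likelihood test), 8.94% lower and 10.3% higher. Since this contrast chose the genes, the count of 6 called of 6 carries no weight. Without the library of NT line 2, 2351 genes were called in place of 3871. Cpe stood farthest apart. It had 5.05 and 5.2 CPM in KO mESCs, against 39.2 and 64.4 CPM in NT mESCs, and its log2 fold change was -3.33 (SE 0.21), or 10.1-fold lower. The NT lines differed among themselves more for Cpe than for any other of the 6 genes, and the KO libraries rested on 171 and 165 counts. Cobl, the actin nucleator, had 52.7 and 57.2 CPM in KO mESCs, against 270.0 and 345.0 CPM in NT mESCs, with a log2 fold change of -2.48 (SE 0.11).

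Nfkb1 had 28.4 and 30.0 CPM in KO mESCs, against 93.5 and 93.2 CPM in NT mESCs, 3.19-fold lower with a log2 fold change of -1.68 (SE 0.10). Its neighbour Manba went the other way, with 153 and 138 CPM in KO mESCs, against 43.0 and 49.1 CPM in NT mESCs, and a log2 fold change of 1.66 (SE 0.10), or 3.16-fold higher. The difference of this pair was thus of nearly equal size and opposite sign. Sec14l1 had 65.1 and 69.0 CPM in KO mESCs, against 164 and 184 CPM in NT mESCs, with a log2 fold change of -1.37 (SE 0.09). Kif1a, the axonal motor, had 24.3 and 25.7 CPM in KO mESCs, against 10.7 and 10.5 CPM in NT mESCs, with a log2 fold change of 1.24 (SE 0.13). In bulk RNA, a change in the number of cells that express a gene and a change in RNA per cell cannot be told apart.

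In EBs the genotypes were close for all 6 genes. Among 20142 genes tested, 7.39% were called, 2.77% lower and 4.62% higher. Kif1a had 204 and 182 CPM in KO EBs, against 244 and 232 CPM in NT EBs, a log2 fold change of -0.30 (SE 0.06), the reverse of its sign in mESCs, and it alone of the 6 was among the genes called. Manba had 7.63 and 7.38 CPM in KO EBs, against 9.45 and 9.61 CPM in NT EBs, also the reverse of mESCs, with a log2 fold change of -0.34 (SE 0.13). Cpe and Nfkb1 kept the sign seen in mESCs at a small part of its size.

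Cpe had 29.0 and 29.2 CPM in KO EBs, against 32.7 and 33.3 CPM in NT EBs, and a log2 fold change of -0.18 (SE 0.08). Nfkb1 had 34.1 and 36.2 CPM in KO EBs, against 41.1 and 37.2 CPM in NT EBs, and a log2 fold change of -0.15 (SE 0.08). Cobl and Sec14l1 had the smallest differences, both within their error. Cobl had 14.7 and 17 CPM in KO EBs, against 17.6 and 16.4 CPM in NT EBs, so the libraries overlapped, and its log2 fold change was -0.10 (SE 0.11). Sec14l1 had 47.2 and 48.3 CPM in KO EBs, against 49.8 and 49.2 CPM in NT EBs, with a log2 fold change of -0.05 (SE 0.07), and its libraries did not overlap in CPM but did in RPKM.

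**Figure D2:**
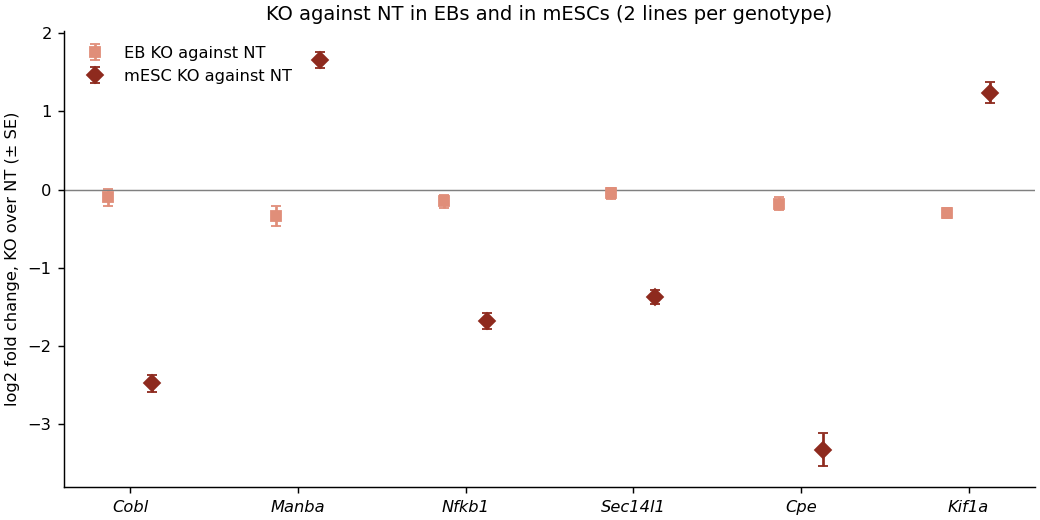
Log2 fold change of KO over NT for each gene, with SE as bars, in EBs (squares) and in mESCs (diamonds), from 2 lines per genotype at each stage. In EBs all 6 values lie between -0.34 and -0.05, while in mESCs they run from -3.33 for Cpe to 1.66 for Manba.

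The same pattern can be counted over all 18926 genes measured at both stages, in EB and mESC libraries that are separate but come from the same lines. Of 423 genes that were called and at least 2-fold lower in KO mESCs, 300 (70.9%) lay within 0.5 of 0 on the log2 scale in KO EBs against NT EBs, as Cobl, Nfkb1, Sec14l1 and Cpe did. A call in the same direction in EBs was made for 41 of them (9.69%) and in the opposite direction for 4 (0.946%). Of 1042 genes called and at least 2-fold higher in KO mESCs, 260 (25%) lay within 0.5 in EBs, as Manba and Kif1a did, and 398 (38.2%) were called higher in EBs too. Kif1a was among the 9 genes (0.864%) called higher in KO mESCs and lower in KO EBs. Both sets were picked by large mESC values, which by itself can place genes nearer 0 in EBs. The share of all 18926 genes within 0.5 in EBs was not counted, so the shares of 70.9% and 25% have no reference. For the shares called in EBs, the reference is 2.77% lower and 4.62% higher over all 20142 genes tested there.

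Seen along differentiation, each line gave its own change. Cobl was lower in EBs than in mESCs in all 4 lines, 3.59-fold and 3.36-fold in the KO lines, against 15.3-fold and 21-fold in the NT lines. Manba was also lower in EBs in all 4 lines, but here the KO lines had the larger differences, 20.1-fold and 18.7-fold, against 4.55-fold and 5.11-fold in the NT lines. Kif1a was higher in EBs in all 4 lines, 8.4-fold and 7.08-fold in the KO lines, against 22.8-fold and 22.1-fold in the NT lines. Thus 3 genes kept their direction in both genotypes and differed in size, and Sec14l1 did the same with smaller values, 1.38-fold and 1.43-fold lower in EBs of the KO lines, against 3.29-fold and 3.74-fold in the NT lines.

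For Nfkb1 and Cpe the direction itself differed between the genotypes. Nfkb1 was 1.2-fold and 1.21-fold higher in EBs of the KO lines, and 2.27-fold and 2.51-fold lower in EBs of the NT lines. Cpe was 5.74-fold and 5.62-fold higher in EBs of the KO lines, and 1.2-fold and 1.93-fold lower in EBs of the NT lines. The NT value of Cpe leaned on line 2. Its fitted log2 change in the NT lines was -0.61 (SE 0.11), and it was -0.26 without NT line 2 and -0.97 without NT line 1.

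**Figure D3:**
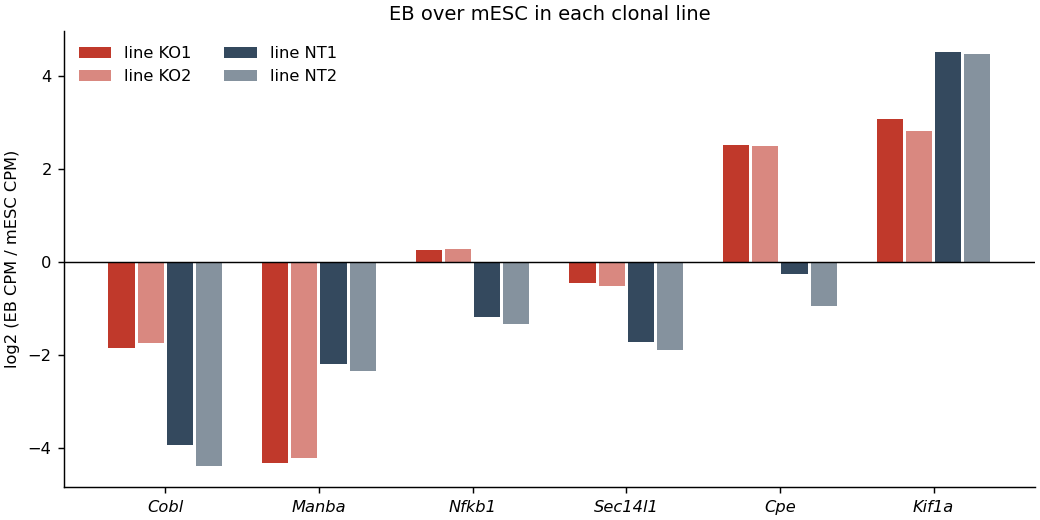
Log2 ratio of EB over mESC CPM in each of the 4 clonal lines, with KO lines in red and NT lines in blue. Bars of KO and NT lines point the same way for Cobl, Manba, Sec14l1 and Kif1a and opposite ways for Nfkb1 and Cpe, and the 2 lines of a genotype have bars of like length except for Cpe in NT.

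The change with stage in KO lines minus that in NT lines, fitted with the line as a block, put the 6 genes in 2 directions. It was 3.12 (SE 0.17) on the log2 scale for Cpe, 2.37 (SE 0.12) for Cobl, 1.52 (SE 0.12) for Nfkb1 and 1.32 (SE 0.11) for Sec14l1, so these were reduced less, or raised, in the KO lines. It was -2.01 (SE 0.13) for Manba and -1.54 (SE 0.11) for Kif1a. Over all genes, 12.3% were called for this difference, 6.86% positive and 5.42% negative (2325 genes, against 1366 without NT line 2, 1409 without KO line 1 and 993 without the line as a block), and 50.1% were called for the stage change in KO lines and 51.1% in NT lines. The difference chose the genes and is not read against these shares.

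Set directly beside NT EBs, KO mESCs were close to them for Sec14l1, at 1.35-fold above, and for Nfkb1, at 1.34-fold below. KO mESCs were 3.23-fold above NT EBs for Cobl and 15.2-fold above for Manba. They were 6.44-fold below NT EBs for Cpe and 9.52-fold below for Kif1a. These ratios cross both stage and genotype and were not tested.

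Levels can be compared between genes only per length, in the deposited RPKM (reads per kilobase of gene, scaled to library size). In KO mESCs the order of the mean RPKM was Manba at 20.5, Sec14l1 at 9.17, Cobl at 6.62, Kif1a at 2.63, Nfkb1 at 2.38 and Cpe at 1.93. In NT mESCs Cobl was first at 37.2 RPKM, ahead of Sec14l1 at 23.9 and Cpe at 19.5, and Nfkb1 at 7.62, Manba at 6.5 and Kif1a at 1.12 were last. Within a gene, neighbouring groups in the order of RPKM had separate ranges, except KO and NT EBs for Cobl (2.0 and 2.11 RPKM) and for Sec14l1 (6.8 and 6.97 RPKM). Annotated genes that overlap the 6 were either not in the count tables of the lines or, for the pseudogene Oaz2-ps inside Manba, at 8 to 27 counts per library, against at least 261 for Manba. Gm12002, annotated antisense inside Cobl, has no row there, and since the strand setting of the counting is not known, Cobl counts could include antisense reads.

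Genes known to work with each of the 6 were examined in 6 lists, to see whether a partner or relative differed in the same contrast. In the NF-kB list, 7 of 27 genes were called lower and none higher in KO mESCs (median log2 fold change -0.21, against 0.015 over all genes). They included Nfkbia, the inhibitor IkBalpha that NF-kB itself induces (-0.59, SE 0.11, adjusted p = 0.00247), Nfkb2, the p100 relative of Nfkb1 (-0.57, SE 0.14, adjusted p = 0.00971), Tnip1, an A20-binding inhibitor (-0.52, SE 0.10, adjusted p = 0.00194), and Tradd, an adaptor of the TNF receptor (-0.76, SE 0.17, adjusted p = 0.00664). Nfkbia had 26.5 and 29.2 CPM as its lowest and highest level in KO mESCs, against 40.3 and 43.6 CPM in NT mESCs. In EBs Nfkb2 alone was called in this list (-0.54, SE 0.10, adjusted p = 0.00582). Of 27 genes, 7 is a larger share than the 8.94% called lower over all genes, but none of the 7 differed by as much as Nfkb1. The lysosomal, prohormone, kinesin and actin lists below also had negative medians and more genes called lower than higher. The SEC14 list went the other way. More lower than higher calls were thus not particular to NF-kB genes.

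Among 24 lysosomal enzymes of glycan breakdown, 4 were lower and none was higher in KO mESCs, against 8.94% and 10.3% of all genes, and 20 were not called (median log2 fold change -0.21). Manba, at 1.66, lay above the highest value of the list, 0.60 for Arsb, which was not called. Of the called genes, Gaa, acid alpha-glucosidase, had a log2 fold change of -0.51 (SE 0.10, adjusted p = 0.00231), Neu1, the lysosomal sialidase, of -0.46 (SE 0.12, adjusted p = 0.0165) and Hexa, the alpha subunit of beta-hexosaminidase, of -0.34 (SE 0.10, adjusted p = 0.0329). In EBs Neu1 was again lower in KO (-0.62, SE 0.09, adjusted p = 0.0015), as were its partner Ctsa (-0.40, SE 0.07, adjusted p = 0.00285) and the chitobiase Ctbs (-0.76, SE 0.20, adjusted p = 0.0354), and Glb1, lysosomal beta-galactosidase, was higher (0.41, SE 0.09, adjusted p = 0.014).

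Of the genes of prohormone processing, 6 of 18 tested were lower and 1 was higher in KO mESCs, against 8.94% and 10.3% of all genes (median log2 fold change -0.30). The proprotein convertases Pcsk6 and Furin were lower, at -1.26 (SE 0.13, adjusted p = 2.91e-05) and -0.93 (SE 0.12, adjusted p = 0.000173), and so was Cpd, which encodes a related carboxypeptidase, at -0.61 (SE 0.15, adjusted p = 0.0139). Pcsk1n, which encodes an inhibitor of the convertase PC1, was higher, at 0.80 (SE 0.15, adjusted p = 0.00263). Furin was also lower in KO EBs, at -0.31 (SE 0.08, adjusted p = 0.0312), the only gene of this list called there.

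In the kinesin list, 4 of 18 genes were lower and 1 was higher in KO mESCs, against 8.94% and 10.3% of all genes (median log2 fold change -0.22). The nearest relatives of Kif1a were lower where Kif1a was higher, with Kif1c at -0.62 (SE 0.09, adjusted p = 0.000347) and Kif1b at -0.61 (SE 0.11, adjusted p = 0.00218). Kif21b was lower too, at -0.67 (SE 0.14, adjusted p = 0.00423), and Kif21a was higher, at 0.72 (SE 0.16, adjusted p = 0.0072). None of the 18 was called in EBs, where 7.39% of all genes were. Among 9 neuron markers, examined because Kif1a is a motor of axons, 8 were in both tables, with 2 called higher and 2 lower in KO mESCs. Their summed level was 487 to 512 CPM in KO mESCs and 344 to 447 CPM in NT mESCs. In EBs, where Kif1a was higher, the sum was lower, at 192 to 223 CPM in KO and 209 to 277 CPM in NT. Stmn2 (-0.84, SE 0.14, adjusted p = 0.00293) and Tubb3 (-0.44, SE 0.1, adjusted p = 0.0173) were called lower in KO EBs. No neuron marker was called higher there. The part of neurons in the Kif1a level was not tested.

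Of 23 genes of actin nucleation tested, 4 were lower and 1 was higher in KO mESCs, against 8.94% and 10.3% of all genes (median log2 fold change -0.18). Was, the WASP protein of blood cells, was higher at 1.64 (SE 0.24, adjusted p = 0.000357), with 5.45 to 5.67 CPM in KO mESCs and 1.62 to 1.93 CPM in NT mESCs. The formin Fmn1 was lower at -1.22 (SE 0.30, adjusted p = 0.0133), Wasf3 of the WAVE complex at -0.47 (SE 0.10, adjusted p = 0.00383) and the Arp2/3 subunit Actr2 at -0.30 (SE 0.10, adjusted p = 0.0454). In the SEC14 and CRAL-TRIO family 3 of 11 genes were higher and 1 was lower, against 10.3% and 8.94% of all genes (median log2 fold change 0.36). Sec14l2 was higher at 1.44 (SE 0.21, adjusted p = 0.000361), against the lower level of Sec14l1, and so were Prune2 at 0.74 (SE 0.15, adjusted p = 0.00378) and Atcay at 0.97 (SE 0.25, adjusted p = 0.0153), while Ptpn9 was lower at -0.85 (SE 0.17, adjusted p = 0.00358).

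**Figure D4:**
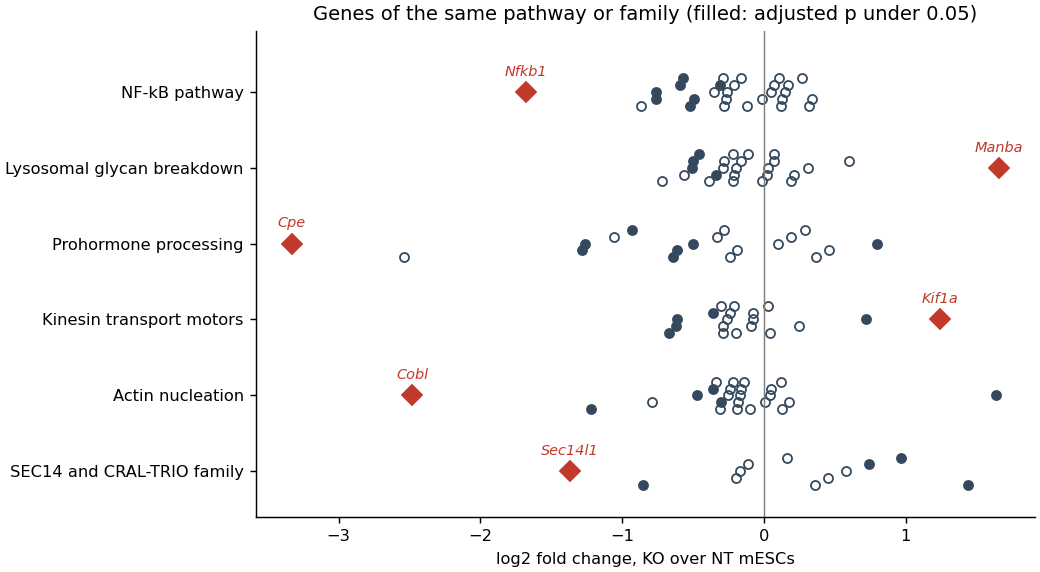
Log2 fold change of KO over NT mESCs for the genes of each list (circles, filled where the adjusted p was under 0.05) and for the gene of the 6 that belongs with the list (red diamond). Each diamond stands beyond the last circle of its list on its own side of 0, and those of Manba, Kif1a and Sec14l1 lie on the side away from most called genes of their lists.

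The 3 nearest measured genes on each side of each of the 6 were compared to see whether a neighbourhood moved. Of 31 such neighbours, 5 were called lower and 3 higher in KO mESCs, against 8.94% and 10.3% of all genes. In KO EBs 3 were called lower and 3 higher, against 2.77% and 4.62% of all genes. The higher ones were Sned1 (0.96) near Kif1a, Ddit4l (0.63) near Nfkb1 and 2900041M22Rik (1.17) near Sec14l1. The lower ones were Msmo1 near Cpe, Ppp3ca (-0.39) near Nfkb1 and Sept9 (-0.2) near Sec14l1. Around Manba and Nfkb1, the zinc transporter gene Slc39a8, 134 kb beyond Nfkb1, was lower (-1.91, SE 0.42, adjusted p = 0.00648) at a mean of 0.369 CPM in KO mESCs and 1.39 CPM in NT mESCs. On the other side the ubiquitin-conjugating enzyme gene Ube2d3, 17.4 kb before Manba, was slightly lower (-0.38, SE 0.09, adjusted p = 0.00928). Apart from the pair itself, no neighbour of Manba or Nfkb1 was called higher in mESCs.

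Next to Cpe, Msmo1, an enzyme of cholesterol synthesis at a distance of 25.1 kb, was lower in KO mESCs (-0.81, SE 0.13, adjusted p = 0.000651) and in KO EBs (-0.36, SE 0.06, adjusted p = 0.00503), and Klhl2 was lower in KO mESCs (-0.44, SE 0.11, adjusted p = 0.0139). Spock3, 1240 kb away on the other side, was higher (3.85, SE 0.62, adjusted p = 0.000787), at means of 1.08 CPM in KO mESCs and 0.0676 CPM in NT mESCs. Near Kif1a, Crocc2 was higher (3.04, SE 0.29, adjusted p = 1.43e-05) at 66.8 kb and Sned1 (0.65, SE 0.21, adjusted p = 0.0448) at 134 kb. The imprinted gene Grb10, 198 kb from Cobl, was lower (-0.54, SE 0.08, adjusted p = 0.000269), and no neighbour of Sec14l1 was called in mESCs.

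Genes with the most similar profile were named by Pearson's r of log2(CPM + 0.5) over the 8 line libraries, among 13756 genes with a mean of at least 1 CPM. Since the libraries fall into 4 groups and share lines, r here describes a likeness in shape and takes no account of size. The 3 nearest to Cobl were Tsfm (r = 0.998), Zdhhc18 (r = 0.9974) and the receptor tyrosine kinase gene Kit (r = 0.9965). Tsfm had means of 59.1 CPM in KO mESCs, 74.9 CPM in NT mESCs, 51.0 CPM in KO EBs and 51.7 CPM in NT EBs. Kit had means of 28.9 CPM in KO mESCs, 64.8 CPM in NT mESCs, 13.7 CPM in KO EBs and 13.9 CPM in NT EBs. Nearest to Nfkb1 were Lingo1 (r = 0.9904), Olig2 (r = 0.9868) and Camkk2 (r = 0.9848). Olig2, a transcription factor of oligodendrocyte progenitors, had means of 11.1 CPM in KO mESCs, 57.3 CPM in NT mESCs, 11.8 CPM in KO EBs and 15.8 CPM in NT EBs.

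The transcription factor gene Sall2 had the profile most like Kif1a (r = 0.9982), with means of 23.3 CPM in KO mESCs, 11.4 CPM in NT mESCs, 191 CPM in KO EBs and 239 CPM in NT EBs. Manba was nearest to Stc2 (r = 0.9973), the glycoprotein hormone stanniocalcin-2, at means of 51.3 CPM in KO mESCs, 29.5 CPM in NT mESCs, 12 CPM in KO EBs and 14.2 CPM in NT EBs. For Sec14l1 it was the ethanolamine kinase gene Etnk1 (r = 0.9946), and for Cpe the zinc finger gene Glis2 (r = 0.9932). Among the 6 genes themselves, r ran from 0.986 for Cobl with Sec14l1 to -0.948 for Cobl with Kif1a, and it was 0.05 for the neighbours Manba and Nfkb1.

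In E8.5 embryos, which had no part in choosing the genes, none of the 6 was called between Zmym2-/- and WT, where 0.524% of 22729 genes were, 0.51% higher and 0.0132% lower. Nfkb1 had the largest difference of the 6. Its lowest, median and highest levels were 28.4, 46.4 and 64.3 CPM in Zmym2-/- embryos and 13.4, 27.1 and 58.4 CPM in WT embryos, so 1 of 6 Zmym2-/- embryos lay above every WT embryo, and its log2 fold change was 0.60 (SE 0.29, adjusted p = 0.433), of the opposite sign to KO mESCs. It was 0.47 among embryos of the H series alone (2 Zmym2-/- and 4 WT) and 0.60 among those of the J series (4 Zmym2-/- and 2 WT). With litter as a block it was 0.98 (adjusted p = 0.292, against 0.0842 to 1.0 over all 22 alternatives). That fit used only the 7 embryos of litters with both genotypes. Among these the Zmym2-/- embryos were all female and most WT embryos were male, so genotype and sex were largely confounded. Cobl ran from 3.15 to 6.76 CPM with a median of 4.24 CPM in Zmym2-/- embryos and from 2.02 to 5.52 CPM with a median of 3.47 CPM in WT embryos (0.40, SE 0.29, adjusted p = 0.59).

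Manba had 14.0, 25.6 and 44.2 CPM as lowest, median and highest in Zmym2-/- embryos and 15.0, 18.6 and 36.1 CPM in WT embryos (0.33, SE 0.29, adjusted p = 0.674). Sec14l1 had 55.2, 65.6 and 77.4 CPM in Zmym2-/- embryos and 47.8, 56.4 and 81.6 CPM in WT embryos (0.10, SE 0.16, adjusted p = 0.834). For both, the genotypes overlapped over most of their range. Cpe had 20.1, 28.6 and 43.8 CPM in Zmym2-/- embryos and 21.6, 35.1 and 49.4 CPM in WT embryos (-0.24, SE 0.22, adjusted p = 0.70), with -0.74 in the H series and 0.01 in the J series. Kif1a had 3.05, 5.79 and 13.5 CPM in Zmym2-/- embryos and 0.66, 4.0 and 12.5 CPM in WT embryos (0.31, SE 0.53, adjusted p = 0.853), and its sign turned between the series, at -0.62 in H and 0.58 in J.

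**Figure D5:**
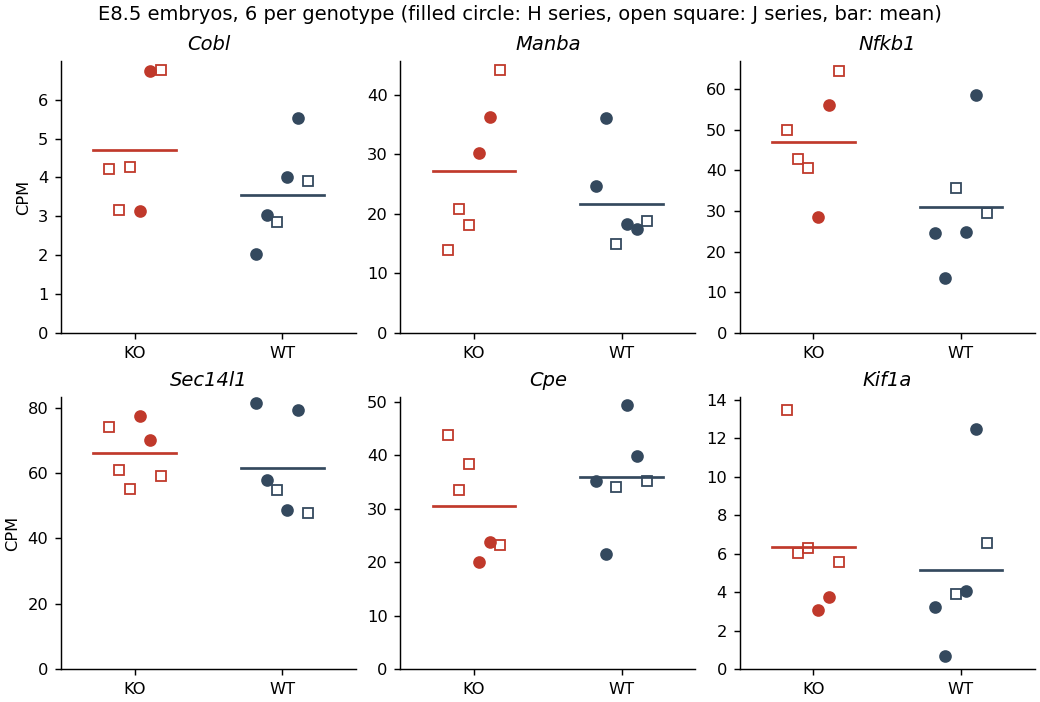
CPM of each gene in every E8.5 embryo, 6 Zmym2-/- (red, left) and 6 WT (blue, right), with filled circles for the H series, open squares for the J series and bars for the mean. The genotypes overlap for all 6 genes, and the spread within a genotype is wide, for Nfkb1 from 13.4 to 58.4 CPM among WT embryos.

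Set beside the lines, embryos of both genotypes held Cobl and Kif1a at low levels. The mean RPKM of Kif1a was 0.719 in Zmym2-/- embryos and 0.549 in WT embryos, and that of Cobl was 0.60 in Zmym2-/- embryos and 0.427 in WT embryos, each below the lowest group mean in the lines. Cpe averaged 15.3 ± 5.32 RPKM in Zmym2-/- embryos and 16.7 ± 4.43 RPKM in WT embryos (SD, n = 6 each), within the range spanned by the lines. RPKM of embryos and lines come from separate tables and were not tested against each other.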

How the data were processed

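RNA was sequenced as 100 nt paired-end, strand-marked mRNA libraries. Per the labels and the methods, the authors ran Trimmomatic 0.34 for trimming, STAR 2.7.8a for alignment to mm10 and Picard 2.9.0 for sorting and marking duplicates, and deposited raw counts per gene and RPKM, from HTSeq-count and StringTie 1.3.5. The HTSeq version, annotation and strand setting were not given in the sources used here. The deposited normalized counts, which the authors had divided by 1 factor per library and rounded, are treated as a score and were not used.

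The 6 genes and all lists were chosen with earlier results of these data known. Genes with at least 10 counts summed were tested with edgeR 4.0.16 (TMM, quasi-likelihood, two-sided, Benjamini-Hochberg over all genes, called under 0.05) in R 4.3.3. Genotypes were compared within each stage (4 libraries). Stage changes were fitted over 8 libraries with line as a block, since EBs were made from the same lines (deviations of a line at both stages correlated at 0.424 in KO and 0.16 in NT). Embryo names carry a series, H or J, taken as a label of unknown meaning. Series and litter were tried as terms, litter over only the 7 embryos of litters with both genotypes. SE is the log2 fold change over the root of F. With 2 clones per genotype and 1 library per line and stage, p-values within a stage rest on the spread between libraries of different clones. With line as a block they rest on the spread of the stage change between lines, and in embryos on that between embryos. The spread was estimated in part over all genes. Named genes were the 6, Zmym2, up to 4 called genes per list and contrast by p, 3 neighbours on each side and 3 like profiles, and some of these are summarised; 1 gene of a list is not reported here by name. Alternatives were RLE scaling, DESeq2 1.42.0, other filters, leave-one-out, blocks, covariates and RPKM. The tests were tried on simulated data.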

Additional observations from a re-analysis of the deposited data

Results flagged for a closer look

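The level of Kif1a in 1 Zmym2-/- embryo (replicate 1, J series) was 13.5 CPM, far from the other 5 for a group of 6. Of 14 groups examined this way it was the only one, and chance alone gives about 5% of groups.

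The change from mESC to EB differed between KO and NT lines for all 6 genes, by log2 values of 2.37 for Cobl, -2.01 for Manba, 1.52 for Nfkb1, 1.32 for Sec14l1, 3.12 for Cpe and -1.54 for Kif1a (KO lines minus NT lines). These differences chose the genes and are a description.

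The same difference, tested over all genes at an adjusted p under 0.05, was called positive for 6 and negative for 2 of 31 neighbours. Over all genes it was called positive for 6.86% and negative for 5.42%. It was 0.35 for Grb10 beside Cobl, 0.37 for Ube2d3 and 1.61 for Slc39a8 beside Manba and Nfkb1, and 0.62 for the noncoding RNA Snhg20 beside Sec14l1. Beside Cpe it was 0.44 for Msmo1 and 0.45 for Klhl2, and beside Kif1a it was -1.63 for Crocc2. For Spock3, 1240 kb from Cpe, it was -3.04, at means of only 1.08 CPM in KO and 0.0676 CPM in NT mESCs.

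Among the lists, the NF-kB genes Tnip1 (0.62) and Tab1 (0.49) were positive and the IkB-like Nfkbid (-0.63) and Bcl3 (-0.56) negative. The lysosomal Hexa (0.64) and Gaa (0.55) were positive, against the negative value of Manba. In prohormone processing the values were 1.28 for Pcsk6, 0.84 for Pam, 0.62 for Furin and -1 for Pcsk1n. Among kinesins they were 0.59 for Kif1b, 0.45 for Kif1c, 0.45 for Kif13a and -0.65 for Kif21a. In actin nucleation they were 1.13 for Fmn1, 0.52 for Pacsin1, 0.39 for Wasf1 and 0.32 for Actr2. In the SEC14 and CRAL-TRIO family they were 0.69 for Ptpn9, -0.97 for Atcay and -1.54 for Sec14l2.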

How the results depend on the processing

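The difference in stage change kept its sign for all 6 genes under all 12 alternatives. Leaving out 1 line in turn gave 2.15 to 2.62 for Cobl, -2.09 to -1.90 for Manba, 1.45 to 1.61 for Nfkb1, 1.23 to 1.44 for Sec14l1, 2.77 to 3.48 for Cpe and -1.67 to -1.42 for Kif1a. On log2(RPKM + 1), which shrinks low genes by construction, it was -1.70 for Manba, 1.25 for Nfkb1, 2.62 for Cpe and -1.05 for Kif1a. Of 348 alternative values of the 6 genes in the line contrasts, 305 moved by less than the spread between lines and 43 by more. Without KO line 1 the EB difference of Cobl was 0.01.

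Counts over all genes moved more. For the stage difference, 2325 genes were called with the line as a block, 993 with no replicate block, 1246 by DESeq2 and 1366 to 1990 with 1 line left out, the lowest without NT line 2, and 1409 without KO line 1. Leaving out 1 library gave 2351 to 3858 genes in mESCs (3871 with all), 1198 to 1849 in EBs (1489), and, with 1 line out, 7081 to 9621 for the stage change in KO lines (9490) and 7433 to 9649 in NT lines (9662). A replicate number as block gave 2073 genes in EBs; same-numbered lines of the genotypes did not deviate together (r = -0.044 in mESCs and -0.0493 in EBs), so they share only a number.

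In embryos 119 genes were called, 372 by DESeq2 and 49 with the replicate block (same-numbered embryos correlated at -0.468 to 0.405). With litter as a block 1 was called, over only the 7 embryos of litters with both genotypes. All Zmym2-/- males came from a litter without WT embryos and were left out there. The block and the loss of embryos cannot be told apart. Without 1 embryo 80 to 152 genes were called, and, chosen after seeing the data, 1 within the H and 47 within the J series. None of the 6 genes was called in embryos under any of 22 alternatives (adjusted p from 0.0842 to 1.0). With litter as a block, over those 7 embryos, the values were 0.78 for Cobl, 0.67 for Manba, 0.22 for Sec14l1, -0.54 for Cpe and 0.78 for Kif1a. Cpe and Kif1a changed sign in embryos under 1 and 3 of the 22 alternatives. In the KO mESC libraries Cpe rested on 165 and 171 counts. Dropping the count filter changed no count.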
